A study of Glycine max with 14 samples.

Results

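The last stage of a series of germinating soybean cotyledons, stage 7, was set against the first, stage 1, to find which gene loci take over the most abundant RNA between the ends of the course. The contrast rests on 4 of the 14 libraries, all those labelled with these stages: 2 biological replicates of stage 7, taken 6 to 7 days after planting, and 2 of stage 1, taken 1 day after imbibition, the soaking of the dry seed. The labels thus count the days from different events. Both groups were cotyledons of the soybean (Glycine max) cultivar Williams from plants raised in a greenhouse, with RNA from lyophilized tissue that had no purification step, and they carry no other treatment or allele in the labels. The number of seedlings behind a replicate is not stated in the sources used here. The p-values therefore measure the spread between libraries, pooled over all 14 of the series unless stated otherwise.

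A soybean cotyledon is laid down as a storage organ, filled during seed development with storage proteins and oil. After imbibition proteases release amino acids from the stored protein, and lipases and beta-oxidation break down the oil, with the glyoxylate cycle turning the resulting acetyl groups into precursors of sugar. As the seedling emerges the cotyledon greens, builds up Rubisco and the light-harvesting and electron transport complexes of the chloroplast, and works as a leaf until it withers. The title of the series places its interest in that passage and in the transcription factors and glyoxylate cycle genes that take part in it.

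The deposited files give 1 RPKM value (reads scaled by model length and library total) for each of 78773 gene models at 69145 loci. One model stood for each locus, the one with the highest mean over the 14 libraries, and the 35545 loci that reached 1 RPKM in 2 or more libraries entered the test. The other 33600 were not, 9627 of them at 0 in all 14 libraries, and 1461 tested loci passed the filter only through stages 2 to 6. The read totals behind the RPKM values were 83.9 M and 99.8 M (M, reads in units of 1e+06) in the stage 7 libraries and 113 M and 87.2 M in the stage 1 libraries, replicate 1 first here and throughout. At the median tested model length of 1368 bases, 1 RPKM stands for 115 reads in the shallowest library of the series and 179 in the deepest. The loci are named by identifier alone, since the files pair none with a gene name and 0 of them matched the 59048 genes of the RefSeq table used here. For that reason the labelled tissue was not checked against marker genes, and no role, position or sequence is given for any locus.

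The stage 1 libraries stood apart from each other more than the stage 7 libraries did. Log2(RPKM + 1) values correlated at 0.954 between the stage 7 libraries and at 0.792 between the stage 1 libraries, across the tested loci. The stage 7 libraries differed by at least 2-fold at 1546 tested loci (4.35%), and the stage 1 libraries at 11290 (31.8%). Stage 1 replicate 2 correlated at 0.929 and 0.923 with the 2 libraries of stage 2, and stage 1 replicate 1 at 0.816 and 0.736.

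A row of 41 neighbouring identifiers on chromosome 13, Glyma13g11810 to Glyma13g12210, was also set apart, because its level followed the replicate number. It held 1.45% and 8.42% of all RPKM in the stage 7 libraries and 6.78% and 26.9% in the stage 1 libraries, so that replicate 2 was 6.17 times replicate 1 at stage 7 and 4.22 times at stage 1. Within each replicate number the row was lower at stage 7. None of its 39 tested loci passed the test described next (lowest adjusted p = 0.237 by limma), although 38 of them had a negative log2 fold change, with a median of -1.96. That fit has no term for the replicate number, and with one 38 of the 39 were called lower, so the outcome for the row rests on that choice. Ranks and shares of RPKM below leave this row out unless stated, a choice made after the values had been seen, and they are shares of the RPKM outside the row.

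Across the tested loci, 12398 (34.9%) changed between the ends of the course by limma on log2(RPKM + 1), at a Benjamini-Hochberg adjusted p under 0.05 with a log2 fold change of 1 or more in size. Of these, 6390 (18.0% of those tested) were higher and 6008 (16.9%) were lower at stage 7. The spread was pooled over all 14 libraries, and it understates the spread at stage 1. The rises reached further than the falls: 186 loci rose by a log2 fold change of at least 6, and 2 fell by as much, while 3397 of the rises and 4490 of the falls lay between 1 and 2 on that scale. The median log2 fold change was 1.91 among the loci that rose and -1.53 among those that fell, beside -0.13 over all tested loci. The balance of the directions moved with the scaling, to 5602 higher and 7793 lower with the chromosome 13 row taken out of the total and to 7258 higher and 4729 lower with upper quartile scaling. In all 12398 the values of the 2 stages did not overlap, which also held for 65.3% of all tested loci. Many calls depended on the fit: 2838 of the rises (44.4%) and 1420 of the falls (23.6%) were also called in each of 6 other fits, which left out each of the 4 libraries, used these 4 libraries alone or weighted libraries by their spread. Without stage 7 replicate 2 the falls numbered 3957, and 63.1% of the 6008 were among them, against 77.4% to 79.4% without any other one of the 4 libraries. With library weights 6023 loci changed, and in the fit of these 4 libraries alone 6066.

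**Figure D1:**
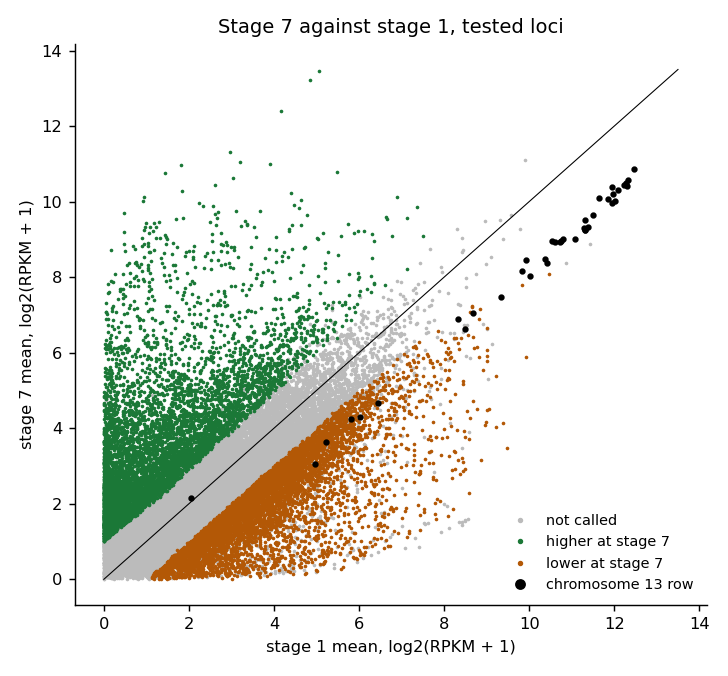
Mean level at stage 7 (vertical axis) against stage 1 (horizontal axis) of each of the 35545 tested loci, both as log2(RPKM + 1), with the 6390 loci called higher, the 6008 called lower and the chromosome 13 row in separate colours. Points far above the diagonal reach a log2 fold change of 9.33, and points below it reach -6.49.

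The 6390 loci that rose came to hold more of the RNA than all other loci together. They made up 54.1% and 56.2% of RPKM in the stage 7 libraries, against 3.59% and 7.30% in the stage 1 libraries. The 6008 loci that fell held 8.04% and 7.06% in the stage 7 libraries and 44.4% and 35.3% in the stage 1 libraries. These loci were chosen by the same contrast, so the shares describe the size of the exchange and test nothing. With the chromosome 13 row counted in the total, the loci that rose held 53.3% and 51.4% at stage 7 and 3.35% and 5.34% at stage 1. In bulk tissue, a smaller share of cells of a type and less RNA per cell cannot be told apart, and RPKM gives shares of the RNA, not amounts per cotyledon.

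The top of the stage 7 ranking was filled mostly by loci that had ranked far lower at stage 1. Of the 10 loci with the highest mean RPKM at stage 7, 9 were called higher and none lower, against 18.0% of tested loci called higher. They were picked for high values at stage 7, so these counts describe where they came from and test nothing. Their means at stage 7 ran between 1717 and 11240 RPKM, and at stage 1 the 9 ranked between 1668 and 24526. The remaining one, Glyma07g15800, was already at rank 6 at stage 1.

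Glyma19g06370, the most abundant locus at stage 7, had 10421 and 12058 RPKM in the stage 7 libraries, against 19.5 and 45.7 RPKM in the stage 1 libraries. Both stage 7 values lay far above both stage 1 values, a ratio of means of 345 and a log2 fold change of 8.50 ± 0.576 (SE; limma, adjusted p = 5.88e-06). Its neighbour by number, Glyma19g06340, ranked second with 8883 and 10264 RPKM at stage 7, against 16.6 and 39.0 RPKM at stage 1. The reads of the pair stayed in a ratio of 0.982 to 0.992 in all 14 libraries, so their separate levels are uncertain, since how multiply matching reads were counted is not stated in the sources used here. At 72 tested loci the reads equalled those of another locus in all libraries. Whether ranks and shares count the same reads more than once was not tested. Next came Glyma13g07610, with 4961 and 5808 RPKM at stage 7 and 9.23 and 24.6 RPKM at stage 1 (log2 fold change 8.37 ± 0.536, SE; limma, adjusted p = 4.61e-06). All 3 were called in every one of the 6 other fits.

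The next loci in the stage 7 ranking rose by similar folds with a wider spread. Glyma05g25810 had 2049 and 3035 RPKM at stage 7, against 4.28 and 9.31 RPKM at stage 1 (log2 fold change 8.40 ± 0.944, SE; limma, adjusted p = 8.08e-05). Glyma08g21410 had 1197 and 3025 RPKM at stage 7 and 3.83 and 12.5 RPKM at stage 1, so that the replicates of each stage differed by more than 2-fold. Its log2 fold change of 7.88 ± 1.38 (SE) passed the limma test at an adjusted p of 0.00121 and missed it with library weights, at 0.101. Likewise Glyma08g08770, at 1709 and 2375 RPKM at stage 7 and 7.54 and 20.3 RPKM at stage 1, had an adjusted p of 0.000279 by limma and 0.0536 with library weights. For both loci the stages did not overlap.

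The 2 largest rises by log2 fold change among all tested loci were also in the stage 7 top 10. Glyma18g04080 had 2055 and 1380 RPKM at stage 7, against 1.07 and 2.32 RPKM at stage 1, a ratio of means of 1015 (log2 fold change 9.33 ± 0.761, SE; limma, adjusted p = 1.38e-05). Glyma11g34230 had 2240 and 1770 RPKM at stage 7, against 1.53 and 3.46 RPKM at stage 1, a ratio of means of 803 (log2 fold change 9.21 ± 0.735, SE; limma, adjusted p = 1.26e-05). In both, replicate 1 was the higher one at stage 7 and the lower one at stage 1. Glyma08g18510 started from a higher level than the others, with 2190 and 1344 RPKM at stage 7 and 50.5 and 37.6 RPKM at stage 1. Its log2 fold change of 5.27 ± 0.416 (SE; limma, adjusted p = 1.2e-05) held in all 6 other fits, as did the calls of Glyma18g04080, Glyma11g34230 and Glyma05g25810.

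**Figure D2:**
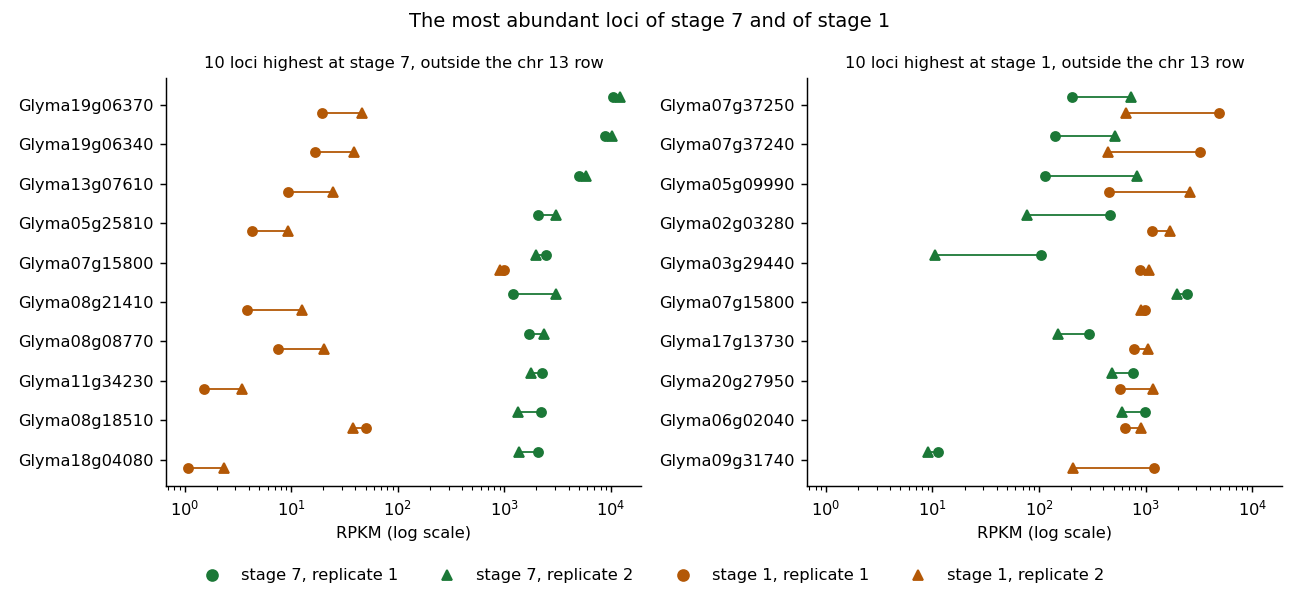
RPKM on a log scale of the highest loci of each stage outside the chromosome 13 row, with circles for replicate 1, triangles for replicate 2, stages marked by colour and a line joining the replicates of a stage. The highest loci of stage 7 sit between 1197 and 12058 RPKM there and, apart from Glyma07g15800, at 50.5 RPKM or less at stage 1.

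Between the ends, most of these loci climbed through stage 4 and were highest at stage 6. The mean of Glyma19g06370 was 32.6, 337, 615, 4067, 8889, 16905 and 11240 RPKM over stages 1 to 7. Glyma18g04080 moved later, with means of 1.69, 16.7, 9.94, 55.3, 633, 1866 and 1717 RPKM in the same order, and Glyma11g34230 likewise, at 97.6 RPKM at stage 4 and 1066 at stage 5. Glyma08g18510 was the only one of the 10 with its highest mean at stage 7. Together the 10 highest loci of stage 7 held 8.70% ± 0.836 of RPKM at stage 7 and 0.265% ± 0.032 at stage 1 (SD, n = 2 each). That share counts Glyma19g06370 and Glyma19g06340 as separate loci.

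The 100 highest loci of stage 7 were nearly all different from the 100 highest of stage 1: 10 loci were in both sets. Within a stage, 64 of 100 were shared by the stage 7 libraries and 34 of 100 by the stage 1 libraries, and a library of one stage shared between 7 and 11 with a library of the other. With the chromosome 13 row included, 23 were in both sets, because the row placed 18 loci in the top 100 at stage 7 and 32 at stage 1. The last locus of the stage 7 set was at 451 RPKM and the next below it at 449.8, while the stage 1 set ended at 282.9 RPKM with the next at 282.7, so membership at the lower edge is arbitrary.

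Of the 100 highest loci of stage 7, 90 were called higher and 0 lower by limma, beside 18.0% of all tested loci called higher, and 82 of them kept the call in all 6 other fits. The 10 without a call were the 10 that were also in the stage 1 set. Over all 100 loci the median level was 657 RPKM at stage 7 and 7.88 RPKM at stage 1. Their median log2 fold change was 6.52, beside -0.13 over all tested loci. At stage 1, 10 of the 100 were under 1 RPKM, 45 at 1 to 10, 30 at 10 to 100, 13 at 100 to 1000 and 2 at 1000 or above. The set was picked for high values at stage 7, so these counts describe where its loci came from.

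As a share of RPKM, the 100 highest loci of stage 7 held 20.9% and 23.0% in the stage 7 libraries, against 2.47% and 3.00% in the stage 1 libraries. Their share over the 7 stages was 2.73, 4.07, 5.00, 10.4, 17.0, 27.7 and 22.0%, highest at stage 6. Of the 100 loci, 57 had their highest mean at stage 6 and 35 at stage 7, and 70 were also among the 100 highest of stage 6.

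**Figure D3:**
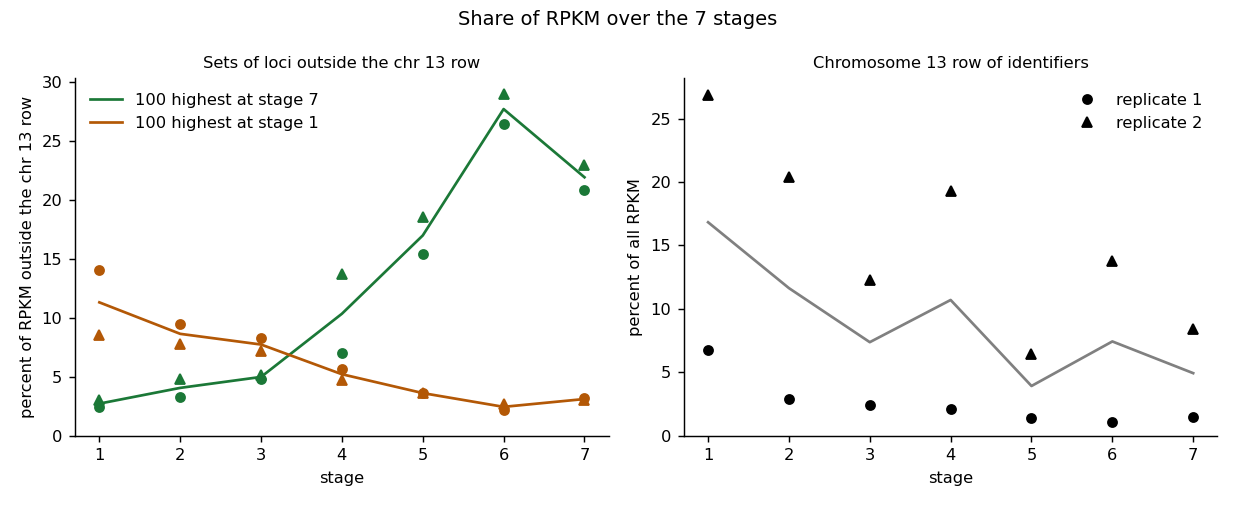
Percent of RPKM outside the chromosome 13 row (vertical axis) held by the 100 highest loci of stage 7 and of stage 1 over the 7 stages (horizontal axis, left), and percent of all RPKM in the row itself (right), with circles for replicate 1, triangles for replicate 2 and lines through the means. The 100 highest of stage 7 lie at 2.73% at stage 1, 27.7% at stage 6 and 22.0% at stage 7, and the 100 highest of stage 1 at 11.3%, 2.46% and 3.12% at the same stages, while replicate 2 of the row lies above replicate 1 at every stage.

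The RNA was also held by fewer loci at stage 7. The single highest locus took 2.22% and 2.60% of RPKM in the stage 7 libraries, against 1.06% and 0.679% in the stage 1 libraries, and the 10 highest of each library took 8.30% and 9.39% at stage 7, against 3.60% and 3.07% at stage 1. In all, 1217 and 1004 loci were needed to reach 50% of RPKM in the stage 7 libraries and 1473 and 3032 in the stage 1 libraries. The ranges of the stages did not overlap in any of these measures, but with 2 libraries a stage an exact permutation test cannot give a two-sided p below 0.333. With the chromosome 13 row included the single highest locus kept that order, at 2.18% and 2.38% at stage 7 and 0.988% and 1.77% at stage 1. The other measures then overlapped: the 10 highest took 8.18% and 9.34% at stage 7 and 4.77% and 14.2% at stage 1, and 50% of RPKM was reached with 1185 and 728 loci at stage 7 and 1220 and 1102 at stage 1.

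Among the loci that were high at stage 1 fewer were called, and their replicates were less even. Of the 100 highest loci of stage 1, 61 were called lower and 0 higher at stage 7 by limma. That stands beside 16.9% of all tested loci called lower, and 18 of the 61 kept the call in all 6 other fits. The set was picked for high values at stage 1, so these counts describe where its loci went and test nothing. In 69 of the 100 the stage 1 libraries differed by at least 2-fold, while 14 of the 100 highest of stage 7 differed so between the stage 7 libraries. The median level of the 100 highest of stage 1 was 58.5 RPKM at stage 7, against 375 RPKM at stage 1. None of these loci ended under 1 RPKM. They held 3.18% and 3.06% of RPKM in the stage 7 libraries, against 14.1% and 8.54% in the stage 1 libraries.

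Among the 10 highest loci of stage 1, 4 were called lower, beside 16.9% of all tested loci, and 6 were not called. These loci were picked for high values at stage 1, so the counts test nothing. Glyma07g37250 led the ranking on the strength of 1 library, with 204 and 730 RPKM at stage 7 and 4840 and 655 RPKM at stage 1. Its neighbour Glyma07g37240 had the same pattern, at 141 and 519 RPKM at stage 7 and 3256 and 447 RPKM at stage 1. In both, the stages overlapped, and limma did not call them (adjusted p = 0.0762 and 0.0804). Both were called lower by limma with the chromosome 13 row out of the total (adjusted p = 0.0399 and 0.0429). Without stage 1 replicate 2, which leaves only the high library of stage 1, their log2 fold changes were -3.65 and -3.58. Those were the largest falls among the 26 alternatives, and the smallest were -0.76 and -0.72. For each of the 2 loci, 24 of the 26 alternatives gave no call. Glyma05g09990 had 115 and 833 RPKM at stage 7 and 449 and 2588 RPKM at stage 1, with reads in near constant ratio to those of 2 loci of the chromosome 13 row, and was not called (limma, adjusted p = 0.448), except with a term for the replicate number (0.00662).

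The 4 that were called fell by different routes. Glyma09g31740 had 11.2 and 9.12 RPKM at stage 7, against 1205 and 209 RPKM at stage 1 (log2 fold change -5.50 ± 0.904, SE; limma, adjusted p = 0.00083). Its call held in all 6 other fits, and its mean was already down to 75.3 RPKM at stage 2. Glyma03g29440 had 105 and 10.6 RPKM at stage 7, against 882 and 1065 RPKM at stage 1 (log2 fold change -4.79 ± 0.957, SE; limma, adjusted p = 0.00254). It still averaged 1040 RPKM at stage 2. Its call was lost with library weights, at an adjusted p of 0.115, and its log2 fold change was -3.19 without stage 7 replicate 2. Glyma02g03280 had 459 and 77.8 RPKM at stage 7 and 1144 and 1700 RPKM at stage 1, with means of 4418 and 4644 RPKM at stages 2 and 3. So its fall between the ends (log2 fold change -2.87 ± 0.858, SE; limma, adjusted p = 0.0195) followed a climb, and the call was lost without stage 1 replicate 2 (0.0633) or stage 7 replicate 2 (log2 fold change -1.60, adjusted p = 0.196), in the fit of these 4 libraries alone (0.104), with quantile normalization (0.0809) and with library weights (0.243). The fourth, Glyma17g13730, had 293 and 152 RPKM at stage 7 and 778 and 1054 RPKM at stage 1 (limma, adjusted p = 0.00456). It was lost in the fit of these 4 libraries alone (0.0822), with library weights (0.0961), with quantile normalization (0.0604) and without stage 7 replicate 2 (0.0564).

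The 2 largest falls among loci with at least 10 RPKM at stage 1 lay outside that top 10, at stage 1 ranks 110 and 49. Glyma17g03040 had 3.25 and 1.11 RPKM at stage 7, against 326 and 219 RPKM at stage 1, so that the stage 1 mean was 125 times the stage 7 mean (log2 fold change -6.49 ± 0.438, SE; limma, adjusted p = 5.88e-06). It was called in all 6 other fits, with a mean of 36.1 RPKM at stage 2. Glyma16g03470 had 6.55 and 1.17 RPKM at stage 7, against 636 and 125 RPKM at stage 1 (log2 fold change -6.13 ± 1.07, SE; limma, adjusted p = 0.00116). Its adjusted p was 0.0651 with library weights. Both were far below their stage 1 level by stage 2, with the stage 2 mean of Glyma16g03470 at 34.7 RPKM.

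A small number of loci were near the top at both ends. The 10 loci in the top 100 of both stages had log2 fold changes between -2.20 and 1.21, and 0 of them were called by limma. Glyma07g15800 had 2431 and 1980 RPKM at stage 7 and 995 and 904 RPKM at stage 1, which did not overlap (log2 fold change 1.21 ± 0.493, SE; limma, adjusted p = 0.0676). The call turned on the setting, since 6 alternatives called it higher at an adjusted p of 0.0104 to 0.0479, limma voom on the recovered reads and upper quartile scaling among them. Its mean reached 3655 RPKM at stage 4. Glyma06g02040 had 995 and 607 RPKM at stage 7 and 634 and 897 RPKM at stage 1, with the ranges overlapping. Glyma04g01920, at 925 and 531 RPKM at stage 7 and 535 and 744 RPKM at stage 1, overlapped in the same way. Glyma20g27950 had 759 and 480 RPKM at stage 7 and 572 and 1183 RPKM at stage 1, and Glyma10g39780 had 615 and 413 RPKM at stage 7 and 525 and 813 RPKM at stage 1. For the last 4 the limma adjusted p was between 0.519 and 0.948, which does not show that their levels were equal.

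In the full ranking the 10 highest loci of stage 1 all lay in the chromosome 13 row. The first, Glyma13g11960, had 503 and 3235 RPKM at stage 7 and 2146 and 9240 RPKM at stage 1, so that stage 7 replicate 2 lay above stage 1 replicate 1 (log2 fold change -1.80 ± 1.66, SE; limma, adjusted p = 0.402). It kept rank 9 at stage 7, the only locus of the row in the stage 7 top 10. The other 9 had log2 fold changes of -2.24 to -1.78 and limma adjusted p of 0.239 to 0.399. With a term for the replicate number all 10 were called lower, at adjusted p of 0.00441 to 0.0110. Several loci of the row had reads in near constant ratio to each other, so their values are not separate measurements.

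Loci under 1 RPKM at one end and well above it at the other were mostly higher at stage 7. A mean under 1 RPKM at stage 1 and of at least 10 RPKM at stage 7 was seen at 734 loci, and at 82 of them the stage 7 mean was at least 100 RPKM. The reverse, under 1 RPKM at stage 7, was seen at 289 loci with at least 10 RPKM at stage 1 and at 5 with at least 100. Asked of both libraries of each stage, the counts were 442 and 43 for stage 7, against 51 and 0 for stage 1.

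Of the loci with no read in both stage 1 libraries, 157 averaged at least 1 RPKM at stage 7, of which 112 were called higher, beside 18.0% of all tested loci, and 7 averaged at least 10 RPKM. Here and in the other direction below, loci were picked by their values from all loci, tested or not, so the counts called test nothing. The highest of the 157 was Glyma13g25470, with 40.5 and 7.65 RPKM at stage 7 against 0 and 0 at stage 1 (log2 fold change 4.24 ± 0.532, SE). Its stage 7 mean, mostly from replicate 1, was at least 1574-fold higher when the stage 1 group is set at a floor of 3 reads over both libraries. Its stage 7 replicates differed by more than 5-fold, and its mean was 1.44 RPKM at stage 6. Glyma18g52240 had 27.6 and 19.4 RPKM at stage 7 against 0 and 0 at stage 1, at least 471-fold higher on the same floor, and it climbed earlier, with means of 4.68 RPKM at stage 4, 12.2 at stage 5 and 31.9 at stage 6. In the other direction 14 loci at 0 in both stage 7 libraries averaged at least 1 RPKM at stage 1, and 3 of them were called lower, beside 16.9% of all tested loci. The 2 highest, Glyma05g05360 (6.86 and 0 RPKM at stage 1) and Glyma17g23600 (5.77 and 0.208 RPKM at stage 1), had their reads almost all in 1 library and were below the filter on low values.

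Over all called loci the exchange was spread along the course. Of the 6390 loci that rose, 27.7% first reached 0.5 of their final mean at stage 2, 19.2% did so at stage 4 and 18.7% not before stage 7. Their highest mean was at stage 7 in 55.5% and at stage 6 in 19.6%. Of the 6008 loci that fell, 22.1% were first at or under 0.5 of their stage 1 mean at stage 2, 28.4% at stage 4 and 1.31% not before stage 7. Their lowest mean was at stage 6 at 4808 loci and at stage 7 at 1010. Stage 7 was not tested against stage 6 here, and the matching counts over all tested loci are not at hand. Loci without a call also held less of the RPKM at stage 6 (31.8% and 29.7%) than at stage 7 (37.2% and 36.1%).

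**Figure D4:**
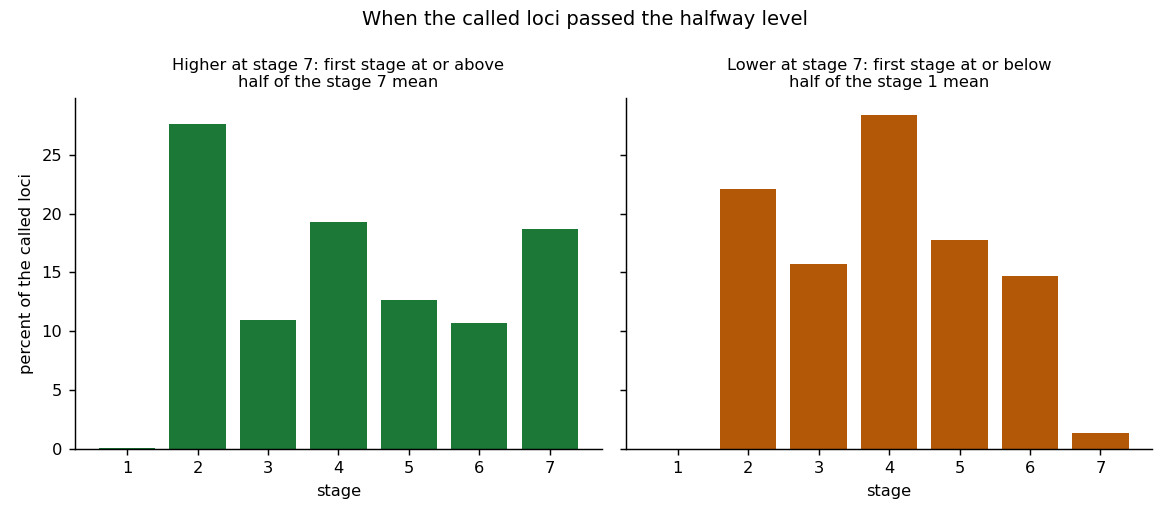
Percent of the called loci (vertical axis) by the stage (horizontal axis) at which the mean first reached 0.5 of the stage 7 mean, for loci higher at stage 7 (left), or first lay at or below 0.5 of the stage 1 mean, for loci lower at stage 7 (right). The highest bars are stage 2 for the rises (27.7%) and stage 4 for the falls (28.4%).

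Both kinds of call were found on every chromosome. By the number in the identifier, the share of tested loci that rose was between 15.7% on chromosome 3 and 21.3% on chromosome 12, and the share that fell between 15.0% on chromosome 15 and 18.7% on chromosome 14. Neighbours more often moved the same way. After a locus that rose, the next tested identifier also rose in 23.5% of cases, beside 18.0% of all tested loci. After one that fell it rose in 15.6%. After a locus that fell, the next also fell in 22.7%, beside 16.9% of all tested loci, and after one that rose it fell in 14.1%. How far neighbours that share reads enter these shares was not tested.

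The longest row of neighbours that all rose held 30 tested loci, Glyma06g43110 to Glyma06g43550 on chromosome 6, against 11 and 10 for the next longest. Their levels were modest, with means of 1.62 to 17.6 RPKM at stage 7 and 0 to 2.88 RPKM at stage 1, and log2 fold changes of 1.36 to 3.47. Summed over the 45 loci with these numbers, the row had 230 and 92.6 RPKM at stage 7, against 4.82 and 2.51 RPKM at stage 1, and stage means of 8.18, 9.95, 27.2, 57.8 and 72.9 RPKM at stages 2 to 6. The models were short, with a median length of 359 bases, and how reads that match near copies were split is not stated. The longest row that all fell held 7 loci, Glyma10g02720 to Glyma10g02790, with means of 0.206 to 9.65 RPKM at stage 7, against 3.07 to 23.7 RPKM at stage 1. A row of 6 on chromosome 13, Glyma13g24460 to Glyma13g24510, singled out after its values were seen, was far more abundant: it summed to 192 and 99.7 RPKM at stage 7, against 1888 and 960 RPKM at stage 1.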

How the data were processed

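Each of the 14 deposited files gives RPKM per gene model, per the file headers. The submitters' processing notes name Bowtie as a tool; the version, genome build, annotation and read counting are not stated in the sources used here. Whole reads, library totals and model lengths were recovered from the RPKM values: for all 67016 models with 2 or more values above 0, reads came out whole to within 0.003 (or 1e-08 relative).

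Values were taken as log2(RPKM + 1), which understates changes of low loci. Means per stage were fitted over all 14 libraries with limma 3.58.1, using statmod 1.5.0 under R 4.3.3, a trended and robust prior, 7 residual degrees of freedom and no term for the replicate. A locus was called at a Benjamini-Hochberg adjusted two-sided p under 0.05 over the 35545 tested loci with a log2 fold change of 1 or more in size. The pooled spread can be too small for stage 1. Scripts were tested on simulated data.

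Named loci are the 10 highest of each stage, the 2 largest rises and falls, the highest loci at 0 at the other end, the 5 highest in both top 100 sets and the longest rows of neighbours. Members, lists and rules were chosen with earlier results of these data known, and naming outside the chromosome 13 row was added after the values were seen. Lists by gene family were not analysed here, since no table at hand pairs the identifiers with names. Floors cover counting error only.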

Additional observations from a re-analysis of the deposited data

How the results depend on the processing

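The 12398 changed loci (6390 higher and 6008 lower at stage 7) were 6023 (3665 and 2358) with library weights, 6066 (3860 and 2206) with the 4 libraries of the contrast alone, 6129 (3255 and 2874) with a pseudocount of 5, and 4258 (2838 and 1420) when called in all 7 fits. Leaving out 1 library gave 9085 to 15142 changed, 5128 to 8680 higher and 3957 to 7522 lower, the lowest of these without stage 7 replicate 2. limma voom on the recovered reads called 15028, a pseudocount of 0.1 15087, no filter 11862, a filter at 5 RPKM 9402 and models summed per locus 12600. Scaling moved the balance, with the cause not tested: 7258 higher and 4729 lower by upper quartile (median log2 fold change of all tested loci 0.01), 5602 and 7793 with the chromosome 13 row out of the total (-0.28), 5979 and 6002 by quantiles (-0.19), 5589 and 7522 when stage 1 replicate 1 was left out (-0.33), and 8680 and 6462 when stage 1 replicate 2 was (0.14).

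With the chromosome 13 row counted, the 10 highest loci of stage 7 held 8.27% of RPKM at stage 7 and 1.32% at stage 1; summed models gave 13.7% and 3.38%, recovered reads 5.87% at stage 7, leaving out libraries 8.18 to 9.34% and 0.218 to 4.03%, and leaving out the row 0.265% at stage 1. The 100 highest of stage 7 held 23.0% at stage 7 (29.7% for summed models, 18.0% for reads) and 14.6% at stage 1 (2.73% without the row). The 100 highest of stage 1 held 24.4% there, and 11.3% without the row. The 23 loci in both top 100 sets were 10 without the row and 10 to 32 without single libraries.

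Glyma20g27950, with a log2 fold change of -0.45, ran between -0.97 and 0.078 without single libraries, and was positive only without stage 1 replicate 2. Glyma06g02040 (0.04) was at -0.16 with the row out of the total and between -0.31 and 0.40 without single libraries, and Glyma04g01920 (0.15) was at -0.050 and between -0.25 and 0.55. None of the 3 was called. The deviations of same-numbered libraries correlated at -0.003 between stages 7 and 1. That value is taken over all tested loci and does not show that pairing is absent at single loci. In the chromosome 13 row, replicate 2 was 6.17 times replicate 1 at stage 7 and 4.22 times at stage 1. The correlation was over 0.1 in 18 of the 21 pairs of stages (range -0.183 to 0.582), so same-numbered libraries of most pairs of stages deviated together to some degree. The reason was not tested. With a replicate block 12700 loci changed (6489 higher and 6211 lower), among them 38 of the 39 tested loci of the chromosome 13 row, Glyma05g09990 (adjusted p 0.00662) and Glyma07g15800 (0.0219). Lists by gene family and their alternatives were not run.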
